A study of Humulus lupulus with 6 samples.

Results

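Pairs of spliced loci that overlap on opposite strands of the hop genome were described in leaf, apical meristem and stem of the cultivar Cascade (Humulus lupulus). Same-strand gene models of the 3 tissues were merged into one locus when their exons had a base in common. A pair was taken where a plus-strand and a minus-strand locus of one contig shared at least 1 exonic base, and where both had a model with at least 2 merged exon blocks in every tissue. This gave 288 pairs, which held 572 of the 23213 spliced loci present in all tissues and of 67811 loci in all. Of these loci, 4 lay in 2 pairs each, and 568 in 1.

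All plants were kept in a glasshouse, untreated apart from sprays against insects and fungi, and young leaves, actively growing stems and apical meristems were taken. Age and plant number are not given in the sources used here, and all groups are the same cultivar. The labels list 2 samples per tissue, their protocol speaks of 1 library per tissue, and the counts come as 1 column per tissue, so each value is the authors' value for that tissue and no error between plants can be given. The files do not pair their gene models with gene names, so that the tissue identity could not be checked against marker genes, and loci are given by contig and position on the authors' Cascade assembly.

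When both strands of a stretch of DNA are transcribed, the RNAs are complementary over the shared bases. Such RNAs are known as natural antisense transcripts, and in plants some of them are cut into small RNAs that act on one partner. A well-studied case is COOLAIR, a group of antisense transcripts of the flowering repressor FLC in Arabidopsis. Convergent genes, which are transcribed towards each other, often overlap at their 3′ ends, where the transcripts are polyadenylated. Divergent genes overlap at their 5′ ends, where promoters lie.

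Counted fragments numbered 125454712 to 162799212 per tissue. Levels are given as normalised CPM, that is fragments scaled to the library total and by TMM factors, and levels of different loci are compared only per kilobase of the tissue's own model. The loci of the pairs took 2.09% of the leaf fragments, 1.59% of the meristem fragments and 1.68% of the stem fragments. No member locus had a count of 0, and the lowest count was 1.

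Most pairs were convergent. Of the 288 pairs, 233 (80.9%) overlapped tail to tail, 23 head to head, and in 32 one locus lay within the span of the other. Opposite-strand spliced neighbours whose spans were apart by up to 1000 bases, 1128 pairs in all, were tail to tail in 86.0% of cases. A further 144 opposite-strand pairs had overlapping spans without a shared exonic base, and 126 of these had one locus within the span of the other, so that the inner locus sat among the introns.

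**Figure D1:**
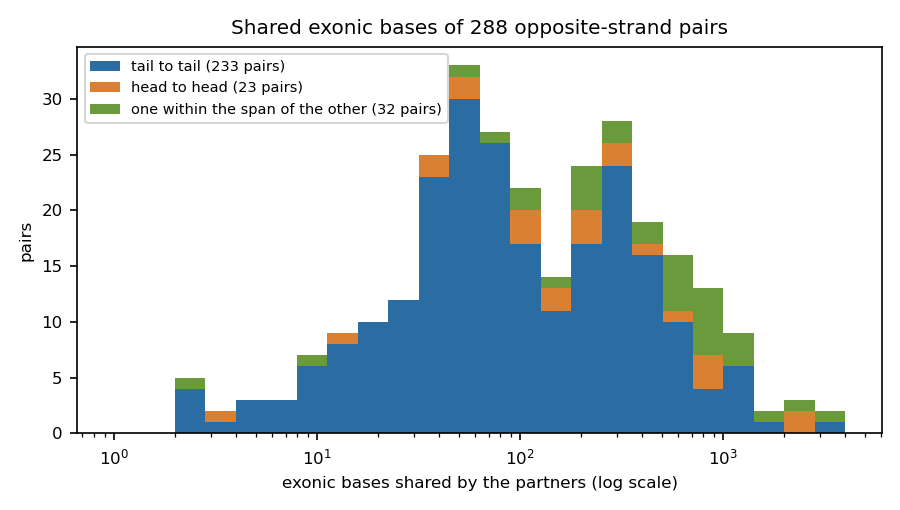
Histogram of the exonic bases shared by the partners of each pair (log scale), stacked by layout, with pairs on the vertical axis. Most tail-to-tail pairs share under 300 bases, with a median of 84, while pairs with one locus inside the other have a median of 545.

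The shared stretch was short in most pairs. The median was 97.5 bases, the middle 50% of pairs ran from 43.5 to 332, and the largest was 3212. Tail-to-tail pairs shared a median of 84 bases, head-to-head pairs 181, and pairs with an inner locus 545. Counted against the partner with the larger share, the overlap took a median of 8.67% of its exonic bases, and in 154 pairs it was under 10% for both partners. The shared bases formed 1 unbroken stretch in 229 pairs. At the edge of the rule, 5 pairs shared the minimum seen of 2 bases, and just outside it 2 neighbour pairs had a gap of 0. Of 18 pairs with 10 or fewer shared bases, 8 had both partners at 10 normalised CPM and 2 of these were highest in the same tissue. For the 11 neighbour pairs with a gap of 10 or fewer bases the numbers were 6 and 0.

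Overlap depended on which tissue's models were read. Only 98 pairs shared bases within the models of every tissue, 72 did so in 2 tissues and 97 in 1. In the remaining 21 pairs a model of one tissue met a model of another, and no tissue alone showed an overlap. Meristem models overlapped in 215 pairs, stem models in 181 and leaf models in 139. Leaf had the most fragments before scaling and the fewest models (51502, beside 59990 in meristem and 57985 in stem). A link of depth or model number to the overlaps was not tested. Among pairs overlapping in 1 tissue only, that tissue was meristem in 53, stem in 27 and leaf in 17. In the 53 meristem cases the meristem was the highest tissue of neither partner in 22, of 1 partner in 22 and of both in 9. In the 27 stem cases stem was the highest tissue of neither partner in 10, of 1 in 13 and of both in 4. In the 17 leaf cases leaf was the highest tissue of both partners in 6, of 1 in 9 and of neither in 2. Loci of the pairs were in any case more often highest in leaf (48.3% of those reaching 10 normalised CPM) than in stem (30.9%) or meristem (20.7%). The splits were not tested against these shares.

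The loci of the pairs were close to other spliced loci in size. Their median exonic length was 1674 bases against 1553 for all spliced loci, and their median span 3367 against 3201. They had a median of 6 exon blocks in leaf and stem and 5 in meristem, against 5 in each tissue. Per kilobase of model their median normalised CPM was 8.55 for leaf, 6.30 for meristem and 5.93 for stem. Medians over all spliced loci were 7.70, 7.37 and 6.90.

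Loci of the pairs were more often highest in leaf than spliced loci at large. Of the 391 members that reached 10 normalised CPM in some tissue, 189 (48.3%) were highest in leaf, 81 (20.7%) in meristem and 121 (30.9%) in stem. Over all 15349 spliced loci at that level the shares were 34.6%, 27.9% and 37.4%. A locus was called higher in a tissue where it reached 10 normalised CPM in one of the 2 tissues and differed at least 4-fold. Against meristem, 76 member loci were called higher in leaf and 12 higher in meristem, of 361 compared (24.4%), beside 15.2% of all spliced loci compared (9.3% higher in leaf, 5.89% higher in meristem). Against stem, 85 were called higher in leaf and 27 higher in stem, of 369 compared (30.4%), beside 25.8% (16.3% and 9.46%). Between stem and meristem, 30 were called higher in stem and 40 in meristem, of 340 compared (20.6%), beside 19.8% (7.94% and 11.9%). The median log2 difference was 0.43 for leaf over meristem and 0.50 for leaf over stem, where all spliced loci had 0.03 and 0.03. In whole tissues, fewer cells of a type and less RNA per cell cannot be told apart.

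The lead of leaf depended on the scaling. Without scaling factors stem was the most frequent highest tissue of the members (38.2%, leaf 29.0%), and the leaf share over all spliced loci was 18.4%. Without them 37 member loci were called higher in leaf and 28 in meristem, of 359 compared, beside 684 and 1800 of 14185 spliced loci. Against stem 60 were called higher in leaf and 50 in stem, of 353, beside 1529 and 2475 of 13989. The median log2 difference then was -0.31 for leaf over meristem and -0.24 for leaf over stem, against -0.68 and -0.67 for all spliced loci. Divided by model length, 80 member loci were called higher in leaf and 6 in meristem, of 353 compared, beside 1366 and 522 of 13925 spliced loci. In pairs with under 10% shared bases 39 loci were called higher in leaf and 6 in meristem, of 217 compared (20.7% called). With 10% or more the calls were 37 and 6, of 145 compared (29.7% called). Where the pair shared no base in the leaf models they were 28 and 8, of 187 compared (19.3% called). Where it shared bases there they were 48 and 4, of 176 compared (29.5% called). Among loci of the neighbour pairs, 171 were called higher in leaf and 71 in meristem, of 1554 compared, and 39.4% were highest in leaf. Against stem, 287 of them were called higher in leaf and 98 in stem, of 1535 compared. Of the calls against stem, 74.5% were thus to leaf, beside 75.9% for the members and 63.3% for all spliced loci. Of the calls against meristem the shares were 70.7%, 86.4% and 61.2%.

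**Figure D2:**
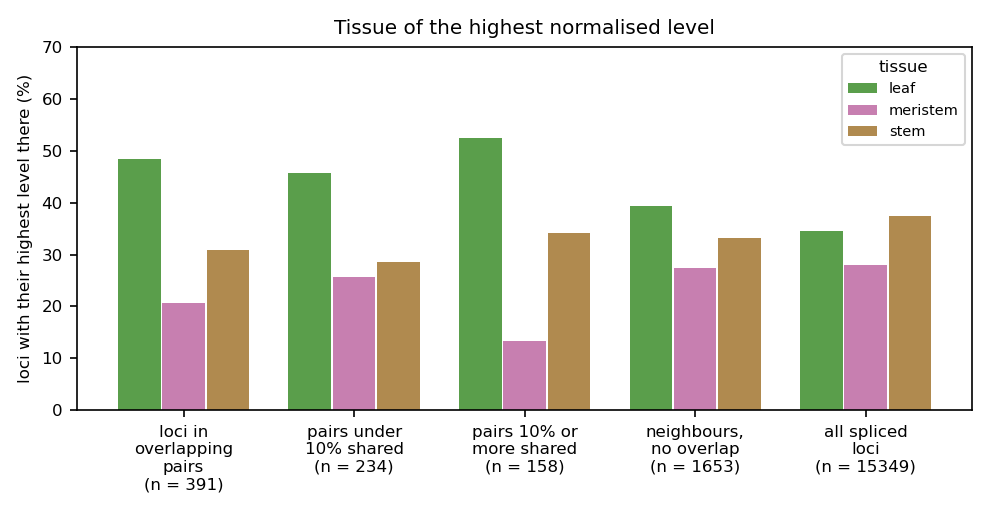
Percentage of loci whose highest normalised level was in leaf, meristem or stem, among loci reaching 10 normalised CPM in some tissue (n under each set). Bars are single values with no replicate error. Leaf leads in the overlapping pairs (48.3%), while stem leads among all spliced loci (37.4%); without scaling factors stem leads in both (38.2% and 42.2%).

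Whether the partners rose together or apart was read from pairs in which both reached 10 normalised CPM. That was so for 119 pairs in leaf versus meristem, 122 in leaf versus stem and 105 in stem versus meristem. In leaf versus meristem 3 pairs (2.52%, exact binomial interval 0.52% to 7.19%) were called together, meaning at least 4-fold in the same direction for both partners. Apart, in opposite directions, were 2 pairs (1.68%, 0.20% to 5.94%). Over every combination of 1 plus-strand and 1 minus-strand spliced locus, the pairings that unrelated loci would give, the shares were 1.21% together and 1.1% apart. Combinations of the member loci alone, which carry the leaf excess, gave 4.49% and 1.35%. In leaf versus stem 4 pairs were called together (3.28%, 0.90% to 8.18%) and 6 apart (4.92%, 1.83% to 10.4%), beside 3.55% and 3.08%, or 5.82% and 3.36% for the member loci. In stem versus meristem the counts were 2 together (1.90%, 0.23% to 6.71%) and 3 apart (2.86%, 0.59% to 8.12%), beside 2.03% and 1.88%, or 2.16% and 2.08%. The intervals treat pairs as independent draws and say nothing of variation between plants, and each of the 6 contains both shares of the combinations. In leaf versus stem 5 of 44 pairs with 10% or more shared were apart (11.4%, 3.79% to 24.6%) and 1 together. With under 10% shared, 1 of 78 was apart (1.28%, 0.03% to 6.94%) and 3 together. With an inner locus, 3 of 6 were apart (50%, 11.8% to 88.2%) and 1 together. The inner-locus pairs are also counted by share, and the difference was not tested. All 7 together calls that involved leaf were higher in leaf, with the pair on 004066F counted in both comparisons. Neighbour pairs were much the same. Their together calls were higher in leaf in 12 of 13 in leaf versus meristem and in 23 of 24 in leaf versus stem.

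Where any partner was called, it was mostly 1 partner alone. This held for 52 pairs (43.7%) in leaf versus meristem, 54 (44.3%) in leaf versus stem and 33 (31.4%) in stem versus meristem. Combinations of all spliced loci gave 25.8%, 38.3% and 31.7%, and combinations of the member loci alone gave 36.9%, 42.4% and 32.7%. The stem versus meristem share thus lay at the background, and the leaf versus stem share lay near that of the member loci. The partner that was not called stayed within 2-fold in 36 of the 52, 36 of the 54 and 18 of the 33 pairs. Neighbour pairs had 1 partner called in 23.0%, 37.0% and 23.7% of the pairs compared. Neither partner was called in 62, 58 and 67 of the overlapping pairs (52.1%, 47.5% and 63.8%), the most frequent outcome in each comparison. These shares were below those of neighbour pairs, which had 72.1%, 56.1% and 70.9%. In the overlapping pairs the median gap between the partners' log2 folds was 1.70 in leaf versus meristem, 2.01 in leaf versus stem and 1.31 in stem versus meristem. Neighbours had 1.28, 1.53 and 1.37, and the combinations 1.24, 1.74 and 1.47.

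Across pairs the partners' log2 folds were at most weakly related. Pearson's r was -0.14 (Spearman -0.13) over 119 pairs in leaf versus meristem, -0.19 (-0.12) over 122 in leaf versus stem and -0.04 (0.01) over 105 in stem versus meristem. With a minimum of 1 normalised CPM r was -0.10, -0.05 and -0.04 over 268, 270 and 268 pairs. All pairs share the same 3 count columns, and partners share the scaling factors. In pairs with under 10% shared bases r was -0.09, -0.06 and 0.03, and with 10% or more it was -0.27, -0.32 and -0.12. Neighbours had -0.06, 0.01 and -0.06. At a fold of at least 2 in both partners, the direction was the same in 14 of 24 pairs (58.3%), 22 of 37 (59.5%) and 13 of 26 (50%). Combinations of all spliced loci gave 50.7%, 50.5% and 50.1%, combinations of the member loci 64.7%, 54.9% and 49.98%, and neighbours 45.7%, 54.9% and 47.8%.

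**Figure D3:**
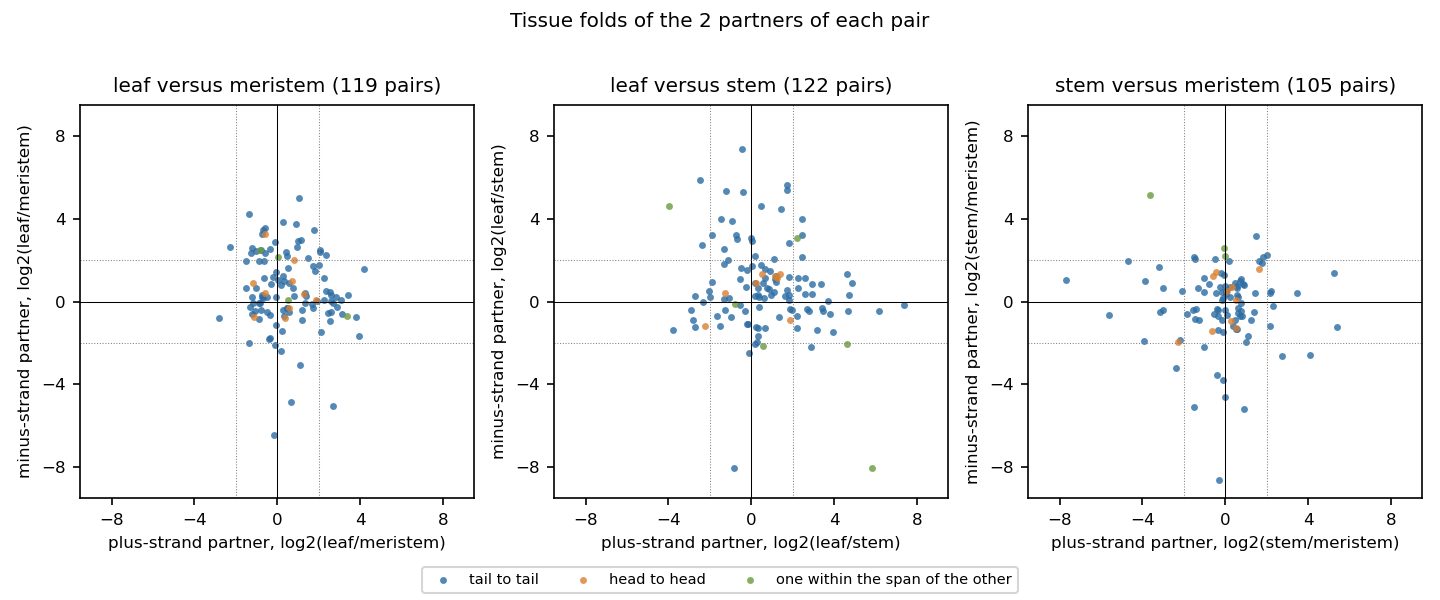
Log2 fold between tissues for the plus-strand partner (horizontal) and the minus-strand partner (vertical), 1 point per pair with both partners at 10 normalised CPM, coloured by layout. Dotted lines mark 4-fold. Points lie along both axes, where 1 partner changes, and few lie beyond 4-fold for both (5, 10 and 5 pairs from left to right).

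Both partners were highest in the same tissue in 55 of 136 pairs that could be compared (40.4%, 32.1% to 49.2%). Combinations of all spliced loci gave 33.8%, and combinations of the member loci themselves gave 37.2%. The interval contains both, so an excess over these combinations is not shown. With a minimum of 1 normalised CPM the share of pairs was 33.9% (95 of 280). Per base of model it was 36.6% (48 of 131), and in the other settings tried it ran from 38.1% to 44.6%. Of the 55 pairs, leaf was the shared tissue in 31, stem in 13 and meristem in 11. Of the 81 pairs with different highest tissues, 41 set leaf against stem, 27 leaf against meristem and 13 stem against meristem. Neighbours shared the highest tissue in 222 of 647 pairs (34.3%), with 33.3% of 570 tail to tail and 41.6% of 77 head to head. Pairs with overlapping spans and no shared exonic base did so in 27 of 62 (43.5%).

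The more abundant partner changed with the tissue in 118 of the 288 pairs. No such share was computed for neighbour pairs or combinations, so whether it differs from that of unrelated loci is not known. Per kilobase of model the same partner was higher in all 3 tissues in 170 of 288 pairs (59.0%), and in 66 of the 136 pairs with both partners at 10 normalised CPM. Of those 136, 26 switched by at least 2-fold each way and 7 by at least 4-fold each way. Partners differed by a median of 3.52-fold per kilobase in leaf, 2.84-fold in meristem and 3.53-fold in stem over all pairs. Differences of 10-fold or more were found in 65, 44 and 55 pairs. Levels of the partners were weakly related across pairs, with r of 0.10 in leaf, 0.22 in meristem and 0.14 in stem on the log2 scale per kilobase (n = 288), and neighbours had 0.14, 0.15 and 0.17 (n = 1128).

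Fragments were assigned by strand, but no source used here says whether strand was preserved in the libraries. If it was not, fragments of the shared bases would fall on both partners. The fragments per base of the partner that was denser in a tissue were therefore multiplied by the bases shared in that tissue. This takes fragments as spread evenly along a model, which was not tested, so a count below the product does not settle the point. The other partner held fewer fragments than this product in 40 of 139 pairs in leaf, 44 of 215 in meristem and 56 of 181 in stem. It held fewer than 25% of it in 14, 13 and 19 pairs. Of the 144 opposite-strand pairs with overlapping spans and no shared exonic base, 56 could be compared between leaf and meristem. There 3 were called together (5.36%, 1.12% to 14.9%) and 1 apart. Between leaf and stem 5 of 58 were together (8.62%, 2.86% to 19.0%) and 1 apart. Stem and meristem gave 2 of 59 together (3.39%, 0.41% to 11.7%) and 0 apart. Combinations of all spliced loci had 1.21%, 3.55% and 2.03% together, each within the interval. Strand preservation was not tested with these pairs.

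The pair with the largest opposite change lay on contig 002197F, with the plus-strand locus at 191922 to 194891 inside the span of the minus-strand locus at 191698 to 196494, and 1373 shared bases. Its plus-strand partner had 32071 leaf, 9093 meristem and 653 stem fragments. The minus-strand partner had 12, 115 and 3669. The order of the tissues was thus reversed, and the pair was called apart in leaf versus stem and in stem versus meristem. Leaf exceeded stem 56.2-fold (counting interval 52.0 to 60.8) in the one, and stem exceeded leaf 267-fold (153 to 518) in the other. The minus-strand model measured 493 bases in leaf and 3068 in stem, and per base of model stem exceeded leaf 43.0-fold. In leaf 204 bases were shared, for which the plus-strand density gives 4246 fragments, and the minus-strand locus held 12 in total. This pair shares over 10% of its bases and was chosen after its values were seen.

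**Figure D4:**
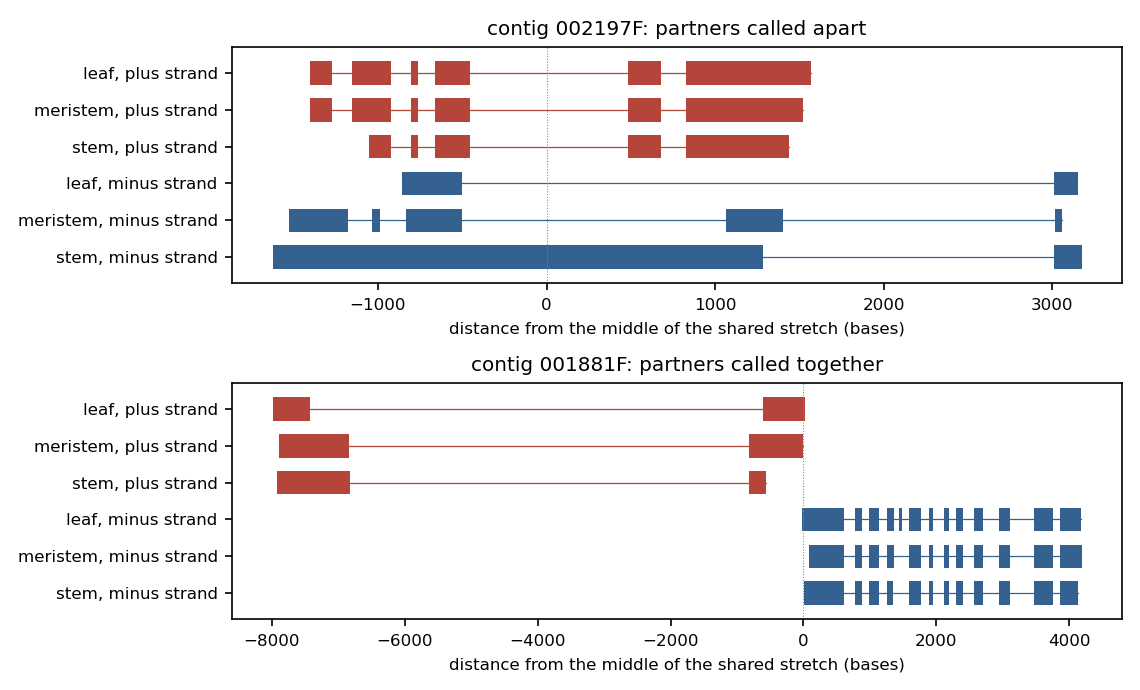
Exon blocks of both partners in the models of each tissue for the pair called apart on 002197F and the pair called together on 001881F, by distance in bases from the middle of the shared stretch. Red is the plus strand and blue the minus strand. On 002197F the minus-strand model differs between tissues and runs through the plus-strand exons in stem, while on 001881F the partners share 31 bases at their 3′ ends in leaf and lie apart in meristem and stem.

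Among pairs with under 10% shared bases, 1 was called apart in leaf versus stem and 2 in stem versus meristem. On contig 000267F a 3-block minus-strand locus at 1327142 to 1328450 met the tail of a plus-strand locus at 1322403 to 1327194 over 53 bases. Within 1 tissue the models share bases in meristem only (26), and none in leaf or stem, the tissues compared. The minus-strand locus had 243755 leaf, 16717 meristem and 4764 stem fragments, a 58.5-fold excess of leaf over stem (56.9 to 60.2). The plus-strand locus went the other way, with 519, 1738 and 3311 fragments, and stem exceeded leaf 5.58-fold (5.08 to 6.13). Per base of model the latter was 2.90-fold, since its leaf model was 983 bases long and its stem model 1890. In leaf the minus-strand locus stood at 1958.5 normalised CPM per kilobase and its partner at 4.27, and in stem at 36.2 and 12.4.

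On contig 003797F the partners lay at 135354 to 138882 (plus) and 138700 to 144729 (minus) and shared 183 bases. The plus-strand locus had 7535 leaf, 4511 meristem and 27062 stem fragments. Its partner had 158, 1726 and 249, so that the meristem was its highest tissue and the lowest of the other. Stem exceeded meristem 6.74-fold on the plus strand, and meristem exceeded stem 6.17-fold on the minus strand (4.12-fold per base). On contig 000823F, at 684282 to 688397 (plus) and 688121 to 693587 (minus), 36 bases were shared, in the meristem models only. There the plus-strand locus had 499, 133 and 1991 fragments in leaf, meristem and stem, and the minus-strand locus 542, 2389 and 357. Stem exceeded meristem 16.8-fold (14.1 to 20.2) in the first, and meristem exceeded stem 5.96-fold (5.33 to 6.68) in the second. Both were nearly equal per kilobase in leaf, at 3.22 and 3.52 normalised CPM.

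The other 6 pairs called apart had 10% or more shared bases and were named after their values were seen. On 000802F (826609 to 828690 and 828413 to 830600) the plus-strand locus had 4495, 885 and 197 fragments in leaf, meristem and stem, and the minus-strand locus 86, 3593 and 7. Leaf was highest for the first and meristem for the second, and stem was low for both. On 004794F (114958 to 124847 and 123410 to 125192) the plus-strand locus had 339, 2116 and 371 fragments and the minus-strand locus 2376, 485 and 925. This pair was called apart in leaf versus meristem, at 4.86-fold and 6.30-fold, and per base of model the first value was 3.23-fold. On 001492F the 6-block minus-strand locus at 404504 to 406465 lay inside the plus-strand locus at 398442 to 406533. The inner locus had 15149, 1573 and 707 fragments and the outer one 165, 951 and 2979. On 001987F the inner locus was on the plus strand at 481394 to 482462, with 5374, 673 and 252 fragments, and the outer at 481098 to 485412 had 2182, 4502 and 10309. On 006613F (149822 to 153424 and 152779 to 164960) the plus-strand locus had 22084, 11066 and 3430 fragments and the minus-strand locus 3040, 4087 and 15954. On 001505F (466395 to 470161 and 469400 to 474201) the values were 694, 109 and 4072 on the plus strand and 5588, 2558 and 980 on the minus strand. Per base of model stem exceeded leaf 3.62-fold on its plus strand. In these last 4 pairs leaf and stem were the opposed tissues. The pair on 000802F shares bases in the meristem models only, and that on 006613F shares none in leaf.

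Pairs called together were mostly high in leaf. On contig 004066F a plus-strand locus at 275543 to 278238 and a minus-strand locus at 277833 to 281747 shared 84 bases, in the stem models only. The plus-strand locus had 8188 leaf, 2521 meristem and 1734 stem fragments, and its partner 1658, 403 and 431. Leaf exceeded meristem 4.17-fold and 5.29-fold, and stem 5.40-fold and 4.40-fold, and this pair was called together in both comparisons with leaf. On contig 001881F the partners at 193754 to 201755 (plus) and 201725 to 205923 (minus) shared 31 bases at their tails, in the leaf models only. The plus-strand locus had 5579, 1091 and 1167 fragments, and the minus-strand locus 10737, 14592 and 1321. Leaf exceeded stem 5.47-fold (5.13 to 5.83) and 9.30-fold (8.78 to 9.85), while in meristem only the minus-strand locus stayed high. On contig 000641F a minus-strand locus at 910237 to 913801 lay inside a plus-strand locus at 908578 to 915461, with 142 shared bases, of which 86 were shared within the leaf models and none in the other tissues. Its fragments numbered 1463, 425 and 200 and those of the outer locus 2580, 3182 and 635, a leaf over stem excess of 8.37-fold and 4.65-fold. The latter was 3.06-fold per base of model.

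One pair was high in meristem for both partners and 1 in stem. On contig 001129F, at 260924 to 263240 (plus) and 263233 to 268522 (minus), 8 bases were shared, in the meristem models only. The plus-strand locus had 590, 1947 and 336 fragments in leaf, meristem and stem and its partner 1093, 5646 and 551, and meristem exceeded stem 5.16-fold and 9.12-fold. Per base of model the first was 2.47-fold. On contig 004859F, at 8807 to 12558 and 12429 to 14262, the values were 716, 1579 and 5751 and 2499, 1244 and 5306, and stem exceeded meristem 4.09-fold and 4.79-fold. The former was 2.70-fold per base of model. This pair, like the 3 that follow, shared 10% or more with one partner and was named after its values were seen. Higher in leaf were both partners on 001685F (358385 to 362981 and 361889 to 364485), with 2243, 568 and 721 fragments and 6788, 1868 and 1102. On 008748F (62061 to 65370 and 64351 to 66699) they had 5689, 1766 and 1346 and 3252, 746 and 1703. On 009345F (10529 to 15349 and 15207 to 15943) they had 5668, 2113 and 1195 and 1332, 157 and 96, with leaf over stem at 5.43-fold and 15.9-fold.

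**Figure D5:**
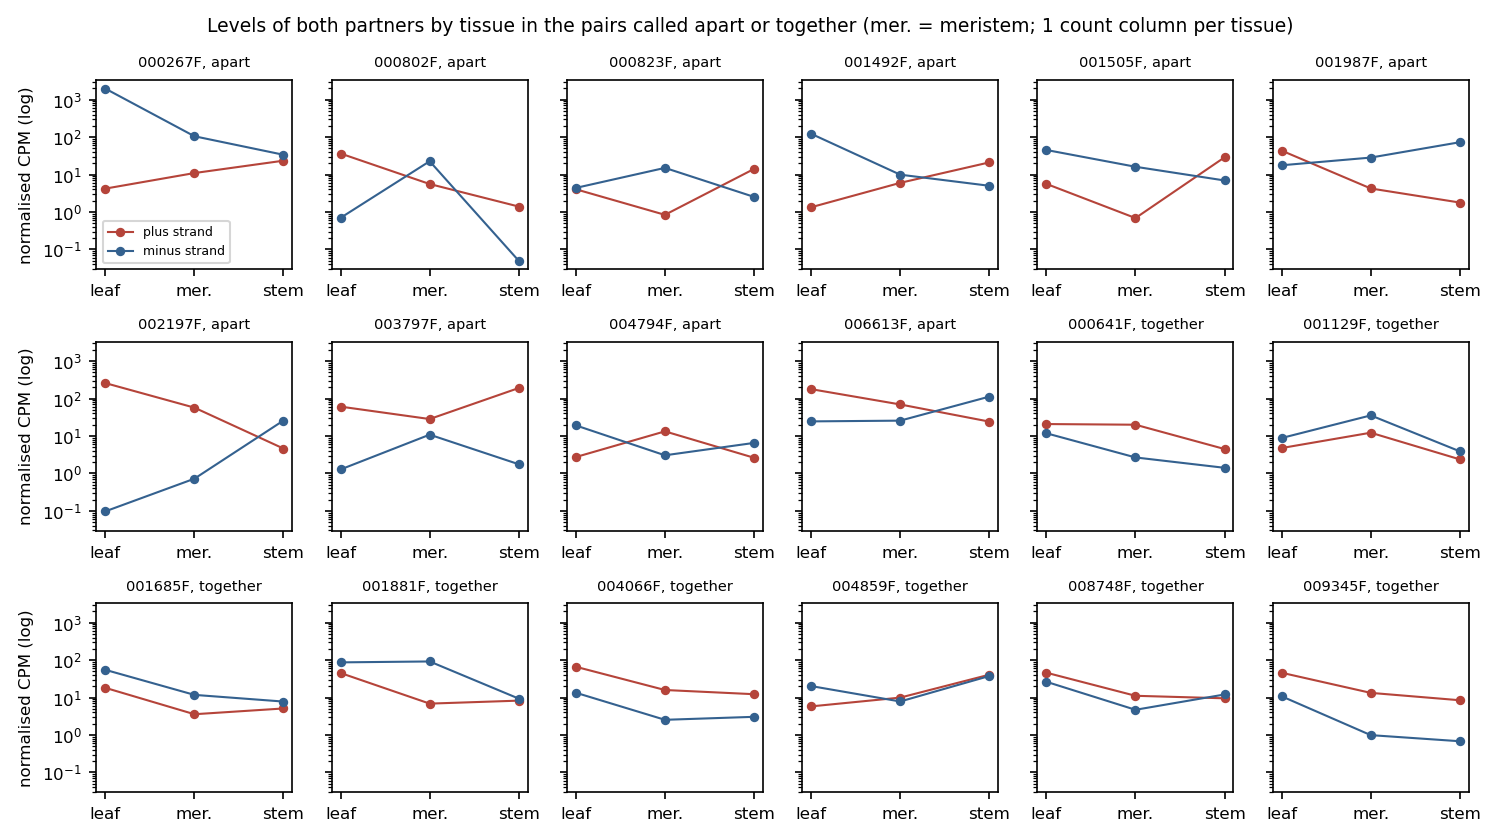
Normalised CPM (log axis) of the plus-strand (red) and minus-strand (blue) partner in leaf, meristem (mer.) and stem for the 10 pairs called apart and the 8 called together in any comparison. Points are single values with no replicate error. Lines cross or diverge in the pairs called apart and run side by side between the tissues called in the others.

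Leaving out the scaling factors moves all loci of a comparison alike, so that both folds shrink or grow in a pair called together, and one shrinks while the other grows in a pair called apart. Without them 8 of the 9 together calls, whose smaller fold had been 4.09 to 5.47, stood at 2.69-fold to 3.94-fold in the same direction, and the one on 001129F stayed past 4-fold. The 11 apart calls stayed past 4-fold in both partners. With RLE factors all 20 calls remained. Divided by model length, 8 of the 11 apart calls and 6 of the 9 together calls kept 4-fold in both partners.

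The 2 pairs with the most abundant lower partner differed in what that partner did. The highest lower partner of all pairs was found on contig 000000F, at 2753344 to 2766211 (plus) and 2765958 to 2772742 (minus), with 254 shared bases. The plus-strand locus had 26257 leaf, 6706 meristem and 412 stem fragments, a 72.9-fold excess of leaf over stem (66.1 to 80.5). Its partner had 42505, 38435 and 67361 and stayed within 2-fold in normalised CPM (2.39-fold between stem and meristem per base of model). Second, and highest among tail-to-tail pairs with under 10% shared, was the pair on 001568F at 106883 to 108960 (plus) and 108939 to 112212 (minus), with 22 shared bases. Its plus-strand locus had 95836, 7995 and 10249 fragments, and its minus-strand locus 4968, 20008 and 7137. Leaf exceeded meristem 15.4-fold in the first, and meristem exceeded leaf 3.13-fold in the second, short of the 4-fold limit. The shared bases lie in the stem models only. In leaf the partners stood at 670 and 19.8 normalised CPM per kilobase, and in meristem at 41.1 and 63.3.

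Few head-to-head pairs could be compared, and none was called together or apart. Neither partner was called in 9 of 10 pairs in leaf versus meristem, 7 of 8 in leaf versus stem and 9 of 10 in stem versus meristem. Head-to-head neighbours had neither partner called in 46 of 70, 31 of 61 and 46 of 61. With so few overlapping pairs a difference was not tested. The most abundant overlapping head-to-head pair with under 10% shared lay on contig 002186F at 327420 to 330190 (plus) and 322066 to 327459 (minus). There 40 bases were shared between models of different tissues. It had 8604, 6665 and 8416 fragments on the plus strand and 19124, 12358 and 11712 on the minus strand, and normalised CPM differed between tissues by no more than 1.99-fold. Among pairs with one locus inside the other and under 10% shared, the most abundant was on 002729F, at 376741 to 386545 (plus) and 384868 to 386381 (minus). The outer locus had 4782, 11086 and 9407 fragments and the inner one 7550, 1741 and 9395. Meristem was the lowest tissue of the inner locus, 5.57-fold under leaf and 6.06-fold under stem, while the outer locus stayed within 1.80-fold.

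The largest overlaps were of 3212 and 3209 bases. The first was on contig 006452F, at 182009 to 186465 (plus) and 182702 to 186235 (minus), and took 97.0% of the minus-strand locus. Its plus-strand locus had 1723, 1181 and 2350 fragments and its minus-strand locus 202, 1077 and 248, so that meristem was lowest for one and highest for the other. Minus-strand models there measured 1459, 3098 and 2537 bases in leaf, meristem and stem. The second was on 001668F at 416980 to 421539 and 417838 to 424192, with 17274, 9544 and 2901 fragments on the plus strand and 2867, 6741 and 4577 on the minus strand. Per base of model its minus-strand locus differed by no more than 1.07-fold between tissues, while the plus-strand locus was 6.72-fold higher in leaf than in stem.

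Further pairs, 3 in number, switched their more abundant partner by at least 4-fold each way per kilobase without being called apart, and were named after their values were seen. On 000534F (159498 to 162431 and 160600 to 162483) the minus-strand locus went from 61 fragments in leaf to 2297 in meristem and 18167 in stem, while the plus-strand locus had 1840, 1488 and 3694. Per kilobase the partners stood at 20.1 (plus) and 0.39 (minus) normalised CPM in leaf and at 13.8 and 80.8 in stem. On 000541F (215854 to 219689 and 219084 to 220970) the minus-strand locus had 13239, 1190 and 393 fragments beside 2320, 2474 and 3488 on the plus strand. On 000683F (87742 to 88849 and 88802 to 89805) the plus-strand locus had 1448, 306 and 508 fragments and the minus-strand locus 1756, 1812 and 48. The partners there were nearly equal in leaf, at 20.0 and 17.5 normalised CPM per kilobase, and differed in opposite directions between meristem and stem.

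In 2 pairs an intron had the same first and last base on both strands. On 000382F (1240810 to 1260875 plus, 1201956 to 1260947 minus) the plus-strand locus had 53, 66 and 107 fragments and the minus-strand locus 1893, 1638 and 8995. On 001223F (716784 to 778491 plus, 716082 to 778692 minus) the counts were 34, 2 and 200 and 2467, 694 and 3788. The plus-strand locus was the rarer one in every tissue, lay almost wholly within shared bases (100% and 95.3%), and was highest in stem, as was its partner. The other 286 pairs shared no intron.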

How the data were processed

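The authors deposited raw counts, whole numbers of fragments per gene model, in 1 table per tissue. Per the file headers, they were made with featureCounts 1.6.3 on paired reads with strand setting 1, against gene models of that tissue alone. HISAT2 2.1.0 and StringTie 1.3.3b are named in the submitters' processing notes. The recorded commands set no option for reads with several alignments or overlapping several models of a strand, so near-identical copies are uncertain.

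Alternatives tried were other scalings, filters, folds, minimum levels and overlap limits. Here models were joined into loci by shared exonic bases on one strand, and counts were summed. TMM factors from edgeR 4.0.16 (R 4.3.3), used for normalisation only, came to 0.759 (leaf), 1.17 (meristem) and 1.13 (stem). A floor of 3 counts (0.0184 to 0.0239 CPM) was set for counts of 0 and was not needed for members. Fold intervals are exact binomial 95% intervals and cover only counting error, as amplified reads lacking molecular identifiers may repeat one molecule. Pair finding and calls were tested on simulated data with known answers. Python 3.11.15, pandas 2.3.3, numpy 2.4.6, scipy 1.17.1 and matplotlib 3.10.9 were used.

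With 1 column per tissue the intended quasi-likelihood test was not run and no p-value computed. The pairs, limits and rules for naming pairs were chosen with earlier results of these data known. Named were, with under 10% shared and no identical intron, the 2 pairs per comparison with the largest smaller fold called together or apart, and the most abundant pair of each layout. Added from all pairs were the 2 with most shared bases, the 2 most abundant and those with identical introns.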

Additional observations from a re-analysis of the deposited data

How the results depend on the processing

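No paired analysis was possible because each tissue has a single column without a replicate number, and for the same reason no replicate was left out and no DESeq2 or quasi-likelihood test was run. The shares of pairs stayed within their main intervals under RLE factors, no low-count filter, a minimum of 1 normalised CPM, loci in no other pair, no identical intron, at least 100 shared bases and, chosen after seeing the data, tail-to-tail pairs only. Within those intervals, shares that moved by over 1.5 times were 1.49% together in leaf versus meristem, 5.19% together in leaf versus stem and 1.12% apart in stem versus meristem, with the minimum of 1 normalised CPM. With at least 100 shared bases 3.92% were together and 3.92% apart in leaf versus meristem, 9.62% apart in leaf versus stem and 5.26% apart in stem versus meristem, and tail-to-tail pairs had 2.78% apart in leaf versus stem. With a fold of 2, 11.8% were together and 8.40% apart in leaf versus meristem, 18.0% and 12.3% in leaf versus stem, and 12.4% and 12.4% in stem versus meristem, by construction of the wider limit. Without scaling factors 0% were together and 3.31% apart in leaf versus meristem, 1.75% together and 7.89% apart (9 pairs) in leaf versus stem, and per base of model 0% in stem versus meristem. With 1 model per file 0% were apart in each comparison (51, 51 and 45 pairs). With under 10% shared bases 1.28% were together and 0% apart in leaf versus meristem and 1.28% in leaf versus stem. Where the product of density and shared bases was under 25% of the lower partner in each tissue, the shares apart were 0%, 1.37% and 0%, and r for stem versus meristem was 0.23. With overlap in every file 10.5% were apart and 0% together in leaf versus stem, 0% together in stem versus meristem, and r for leaf versus stem was -0.38. At least 100 shared bases gave r of -0.25 in stem versus meristem. With the minimum of 1 normalised CPM r for leaf versus stem was -0.05 over 270 pairs. The number of pairs was 98 with overlap in every file, 142 with at least 100 shared bases, 88 with 1 model per file and 286 without identical introns. The cause of these shifts was not tested, beyond fewer pairs entering. Together and apart calls rest on 2 to 6 pairs per comparison.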
